A study of Mus musculus with 6 samples.

Results

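Most animal miRNAs are cut from long primary transcripts by the nuclear enzyme Drosha with its partner Dgcr8, and then trimmed by Dicer. A small set reaches Dicer by other routes: capped hairpins that begin at a transcription start, mirtrons released by splicing of a short intron, and hairpins folded from small nucleolar RNA-like or tRNA-like transcripts. The members described here were 7 mature mouse miRNAs of such origin, chosen by name from a table of 1034 mature miRNAs: the capped mmu-miR-320-3p and mmu-miR-484, the mirtron products mmu-miR-877-5p, mmu-miR-877-3p and mmu-miR-702-3p, the snoRNA-like mmu-miR-1839-5p and the tRNA-like mmu-miR-1983. Levels are in TPM, reads per length scaled so that the table sums to 1000000 in each library. All 7 were in the table, and all 7 were among the 670 miRNAs that averaged 1 TPM or more and were tested. The members' routes of origin were taken from knowledge of these loci and were not measured in the libraries.

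The libraries held small RNA of nephron progenitor cells, the self-renewing cells of the kidney cortex that form nephrons, from CD1 mice. The stages were mid-gestation (E14.5) and the day of birth (P0), with 3 libraries each. Each library came from the kidneys of 1 litter (at most 24) pooled, digested for 15 min and enriched on beads carrying an antibody to the integrin Itga8, so a library is a mixture over animals and may hold cells of other types. The table lists miRNAs only, so the labelled cell type could not be checked against its defining genes.

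Recovered reads ranged from 2649506 to 34934526 per library, and the level that 3 reads represent ranged from 0.0863 to 1.14 TPM for a length of 21 bases; it was highest in E14.5 replicate 1. P0 replicate 1 stood apart from P0 replicates 2 and 3, and the members' changes are given with and without it. In TPM the median log2 fold change of the 670 tested miRNAs (P0 over E14.5) was −1.20. After median-of-ratios scaling, which divides each library by its median ratio to the other libraries over 589 table rows with reads in each, it was −0.17. Changes are therefore given on both scales.

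The mature sequences show how unlike the members are. Bases 2 to 8, the seed that pairs with targets, are in capitals. The sequences are those of RefSeq (build GRCm38.p6), 5′ to 3′, and 6 of the 7 members were matched there by name, each at the position and strand of the deposited table. miR-320-3p is named only.
miR-484: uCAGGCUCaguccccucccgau
miR-877-5p: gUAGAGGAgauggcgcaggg
miR-877-3p: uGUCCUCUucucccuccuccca
miR-702-3p: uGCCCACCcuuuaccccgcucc
miR-1839-5p: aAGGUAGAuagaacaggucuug
miR-1983: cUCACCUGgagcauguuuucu
No 2 of these 6 seeds are alike, and among the 885 miRNAs of the table with a sequence the only other carrier of any of them was miR-412-3p, with the seed of miR-1983. The capped miR-484 and the mirtron products are rich in G and C (63.6% for miR-484, 65.0% for miR-877-5p, 59.1% for miR-877-3p and 68.2% for miR-702-3p), against a median of 47.8% over tested miRNAs with a sequence. miR-1839-5p, at 40.9%, and miR-1983, at 47.6%, lie below that median.

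The seed of miR-1839-5p overlaps that of the let-7 family shifted by 1 base. The letters AGGUAG, in capitals here, stand at bases 3 to 8 of let-7a-5p, a developmental timing miRNA, and at bases 2 to 7 of miR-1839-5p.
let-7a-5p: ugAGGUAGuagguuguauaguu
miR-1839-5p: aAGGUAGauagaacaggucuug
Within bases 1 to 8, searched on the mature strand, AGGUAG occurred in 14 of the 885 mature sequences (1.58%), of which 10 were named let-7 or miR-98. This is a match of letters only.

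Hairpins of the mirtron, snoRNA-like and tRNA-like members are shown with mature bases in capitals. Mir877 (minus strand, chr17:35960730-35960814) fills an intron of Abcf1, a translation factor gene, from the first base to the last: the hairpin and the GENCODE M21 intron (build GRCm38) are both 85 bases long. miR-877-5p begins at the first base of the intron and miR-877-3p ends 1 base before its end. The hairpin of Mir702 (plus strand, chr5:136991433-136991541) reaches 9 bases into an exon of Plod3, a collagen lysyl hydroxylase gene. Its 5p arm starts where the 102-base intron starts, and miR-702-3p ends 2 bases before the intron does.
Mir877: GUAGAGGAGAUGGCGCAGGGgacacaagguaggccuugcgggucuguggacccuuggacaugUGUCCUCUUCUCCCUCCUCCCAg
Mir702: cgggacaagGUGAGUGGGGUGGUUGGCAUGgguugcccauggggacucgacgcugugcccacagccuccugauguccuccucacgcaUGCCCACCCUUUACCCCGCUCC
The Mir877 hairpin begins with GU and ends with AG, the usual letters at intron ends. Of 1005 RefSeq mouse hairpins, read on their own strand, 30 (2.99%) do so.

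The snoRNA-like hairpin sits in other kinds of gene, and none was found for the tRNA-like one. Mir1839 (plus strand, chr7:81529916-81529988) has 66 of its 73 bases inside a 127-base gene that GENCODE M21 annotates as a small Cajal body RNA, and miR-1839-5p also lies in an exon of the lincRNA 2900076A07Rik. No GENCODE M21 gene other than Mir1983 itself (minus strand, chr13:21896918-21897049) overlapped miR-1983, and tRNA genes were not searched separately.
Mir1839: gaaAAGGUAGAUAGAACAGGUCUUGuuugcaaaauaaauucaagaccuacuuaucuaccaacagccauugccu
Mir1983: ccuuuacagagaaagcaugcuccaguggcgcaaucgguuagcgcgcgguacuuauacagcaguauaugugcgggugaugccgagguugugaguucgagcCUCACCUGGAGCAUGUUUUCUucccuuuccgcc
The letters GUUCGANNC, the core of the B box by which RNA polymerase III recognises tRNA genes, stand at bases 92 to 100 of the Mir1983 hairpin. They were found on the hairpin's own strand in 5 of the 1005 hairpins (0.498%), and miR-1983 starts at base 100, the last base of that match. The mature sequence carries UUUU at its bases 16 to 19, the kind of run at which that polymerase stops; 44 of 885 mature sequences (4.97%) hold UUUU.

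The remaining members lie at start sites or opposite other genes. miR-320-3p (plus strand, chr14:70443557-70443578) comes from a hairpin that begins 63 bases from the annotated 5′ start of Polr3d, a subunit gene of RNA polymerase III on the minus strand. miR-484 (plus strand, chr16:14159630-14159651) lies in an intron of Marf1 on the opposite strand, and 19 bases of its hairpin overlap a Marf1 exon.

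The tRNA-like miR-1983 fell from E14.5 to birth under both scalings. At E14.5 replicates 1, 2 and 3 held 963, 1173 and 1291 TPM of it. At P0 they held 226, 19.0 and 8.65 TPM. The stages did not overlap, and P0 replicate 1 lay far above the other P0 libraries yet below each E14.5 library. On the log2 scale P0 minus E14.5 came to −5.01 in TPM (SE 0.93, limma adjusted p = 0.00435). Once scaled by the median of ratios, this became −3.75 (SE 0.84, limma adjusted p = 0.0318). On both scales only 1 of the 670 tested miRNAs had a lower fold change. Without P0 replicate 1 the fold change was −6.35 in TPM (limma adjusted p = 1.12e-06). The scaled value without that library was −4.87 (limma adjusted p = 9.56e-05). In the authors' deposited table its log2 fold change was −4.00, with a standard error of 0.77 and an adjusted p of 2.13e-05.

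miR-1983 was the most abundant member at E14.5 and took 63.7%, 60.4% and 60.9% of the summed TPM of the 7 members in the 3 libraries. At P0 it took 36.5%, 5.19% and 2.73%. miR-320-3p held 11.1%, 14.6% and 13.3% of that sum at E14.5 and 15.8%, 64.5% and 61.0% at P0. The leading member therefore differed between E14.5 and P0 replicates 2 and 3, and in P0 replicate 1 miR-1839-5p, at 265 TPM, stood above miR-1983, at 226 TPM. The summed level itself was 1859 ± 313 TPM at E14.5 and 434 ± 162 TPM at P0 (SD, n = 3).

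**Figure D1:**
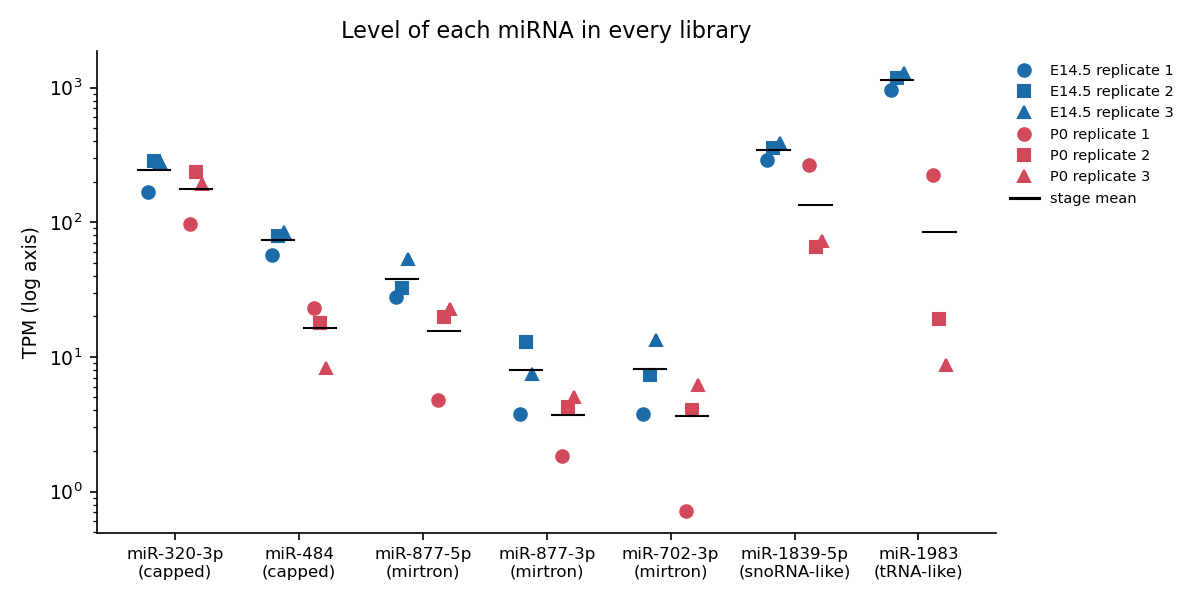
Level of the 7 members in TPM (log axis) by library; colours give the stage, symbols the replicate number and bars the stage mean of 3 libraries. miR-1983 lies at 963 to 1291 TPM in the E14.5 libraries and at 8.65 to 226 TPM in the P0 libraries, and P0 replicate 1 is the lowest P0 library for miR-320-3p and the mirtron products.

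The snoRNA-like miR-1839-5p was lower at P0 in TPM but did not pass the threshold. Its levels were 288, 355 and 388 TPM in the E14.5 libraries and 265, 65.3 and 73.1 TPM in the P0 libraries. The stages did not overlap in TPM, but P0 replicate 1 lay nearer to the E14.5 libraries than to the other P0 libraries. After scaling the stages overlapped, and P0 replicate 1, at 300, lay above E14.5 replicates 1, 2 and 3, at 190, 241 and 225. The log2 fold change was −1.65 in TPM (SE 0.62, limma adjusted p = 0.0564) and −0.36 after scaling (SE 0.48, limma adjusted p = 0.624). Without P0 replicate 1 it passed in TPM, with −2.29 (limma adjusted p = 0.000157). The scaled value without that library was −0.77 (limma adjusted p = 0.0572). P0 replicate 1 thus decided this call in TPM.

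Of the capped miRNAs, miR-484 fell in TPM and miR-320-3p did not pass on either scale. miR-484 had 56.8, 79.0 and 85.2 TPM in the E14.5 libraries and 23.1, 17.9 and 8.29 TPM in the P0 libraries. Its stages did not overlap, and unlike miR-320-3p its lowest library was P0 replicate 3. The log2 fold change of miR-484 was −2.19 in TPM (SE 0.59, limma adjusted p = 0.0156). After scaling it was −0.94 (SE 0.53, limma adjusted p = 0.228), which did not pass. Leaving out P0 replicate 1 gave −2.47 in TPM (limma adjusted p = 0.000819) and −1.01 scaled (0.101). The TPM call was also lost without E14.5 replicate 2 (limma adjusted p = 0.0525), E14.5 replicate 3 (0.0856) or P0 replicate 3 (0.0776).

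miR-320-3p, known as the model of a capped precursor exported without Drosha cleavage, kept a similar range of levels at both stages. It had 168, 284 and 281 TPM in the E14.5 libraries and 97.5, 237 and 194 TPM in the P0 libraries. The stages overlapped, and the lowest library of each was its replicate 1. The log2 fold change in TPM was −0.53 (95% interval −1.75 to 0.70, limma adjusted p = 0.454), 0.67 above the median of all tested miRNAs. Scaled by the median of ratios, it was 0.76 (95% interval −0.52 to 2.05, limma adjusted p = 0.371). The sign thus differed between the scales. Without P0 replicate 1 the scaled change was 1.37 and passed (limma adjusted p = 0.0119), while the change in TPM was −0.15 (limma adjusted p = 0.718).

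The 3 mirtron products did not pass the threshold on either scale. miR-877-5p had 28.0, 32.6 and 53.7 TPM in the E14.5 libraries and 4.77, 19.7 and 22.5 TPM in the P0 libraries. Its stages did not overlap in TPM, and P0 replicate 1 was the lowest library. Its log2 fold change was −1.41 in TPM (SE 0.67, limma adjusted p = 0.110) and −0.17 after scaling (SE 0.75, limma adjusted p = 0.893).

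miR-877-3p, from the same hairpin, had 3.79, 12.9 and 7.44 TPM in the E14.5 libraries and 1.84, 4.23 and 5.07 TPM in the P0 libraries. miR-702-3p had 3.79, 7.38 and 13.3 TPM in the E14.5 libraries and 0.719, 4.01 and 6.24 TPM in the P0 libraries. The stages overlapped for both, and each rested on 10 reads in E14.5 replicate 1. The log2 fold changes were −0.88 for miR-877-3p (95% interval −2.21 to 0.45, limma adjusted p = 0.266) and −1.07 for miR-702-3p (95% interval −2.55 to 0.41, limma adjusted p = 0.221) in TPM. After scaling they were 0.21 (limma adjusted p = 0.858) and 0.02 (limma adjusted p = 0.989), so both changed sign. Without P0 replicate 1, the lowest P0 library for all 3 products, the TPM values were nearer to 0: −0.77 for miR-877-5p (limma adjusted p = 0.162), −0.55 for miR-877-3p (0.423) and −0.47 for miR-702-3p (0.505). The scaled values without that library were 0.71 for miR-877-5p (limma adjusted p = 0.177), 0.75 for miR-877-3p (0.283) and 0.85 for miR-702-3p (0.224). When each library's trend of level on GC content was removed, miR-877-5p and miR-702-3p passed, with log2 fold changes of −2.19 (limma adjusted p = 0.0121) and −2.01 (limma adjusted p = 0.0208). In that fit miR-484 (−2.90, limma adjusted p = 0.00713) and miR-1983 (−4.93, limma adjusted p = 0.00420) also passed, while miR-877-3p (−1.36, limma adjusted p = 0.0643) and miR-1839-5p (−1.23, limma adjusted p = 0.0766) did not. Thus 4 of the 6 members with a value were called lower in that fit, against 34.5% of 582 miRNAs, and miR-320-3p has no value there. The correction was run in TPM only. Fold changes rose with GC content, so it lowered the values of members rich in G and C. It raised that of miR-1839-5p, which was −1.65 without it. The calls of miR-877-5p and miR-702-3p came with that shift.

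Counted together, 2 of the 7 members were called in TPM, both lower, where 34.2% of the 670 tested miRNAs were called and 32.8% were called lower. After scaling 1 of 7 was called, a lower one, where 10.9% of tested miRNAs were called and 5.22% were called lower. The stages did not overlap, with P0 lower, for 4 of 7 members in TPM, against 46.4% of tested miRNAs. After scaling this held for miR-484 and miR-1983, against 19.7%. Without P0 replicate 1, 3 members were called lower in TPM (53% of 689 tested). After scaling without that library, miR-1983 was called lower (25.4%) and miR-320-3p higher (22.6%). The members' median log2 fold change was −1.41 in TPM against −1.20 for all tested miRNAs, and −0.17 on both sides after scaling. In the authors' deposited table, the members other than miR-1983 had adjusted p-values from 0.209 to 0.995. In bulk samples such as these, fewer cells carrying a miRNA and less of it per cell cannot be told apart.

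**Figure D2:**
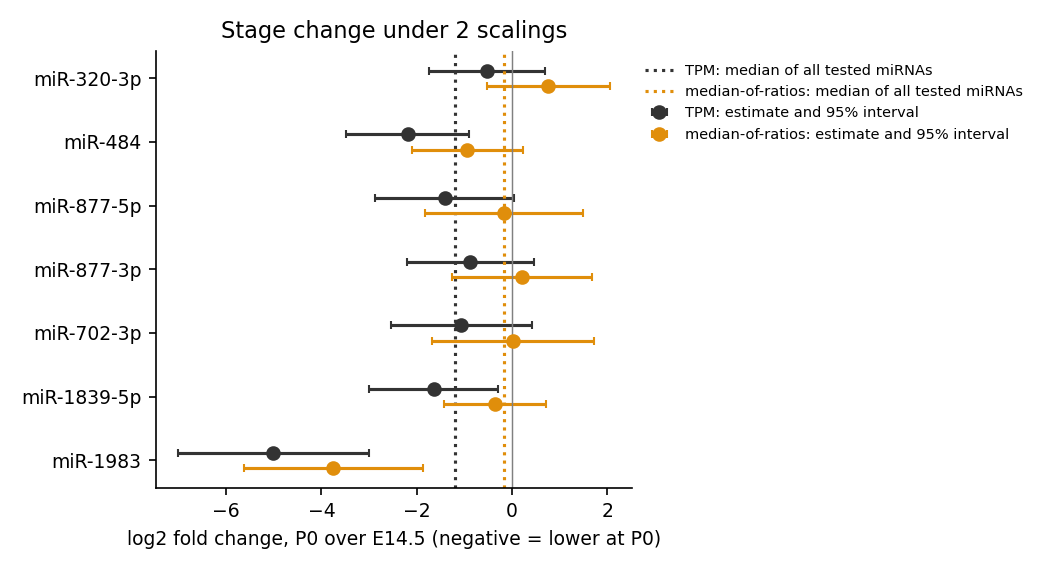
Log2 fold change of each member (P0 over E14.5) with its 95% interval, by TPM and by median-of-ratios scaling; dotted lines mark the median of all 670 tested miRNAs on each scale, −1.20 and −0.17. Only the intervals of miR-1983 lie wholly below the dotted line of their own scale.

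Plain TPM ratios of 2 members within a library do not depend on the scaling between libraries. The log2 ratios tested were taken on TPM + 1 and do depend on it for members of few TPM. miR-1983 stood in an almost fixed proportion to miR-1839-5p at E14.5, with TPM ratios of 3.34, 3.31 and 3.33, and at 0.853, 0.291 and 0.118 in P0 replicates 1, 2 and 3. The stages were separate, with a difference in log2 ratio of −3.36, P0 minus E14.5, computed like the other log2 ratios on TPM + 1 (exact two-sided permutation p = 0.1, the smallest that 3 against 3 libraries allow, and 0.233 adjusted over 7 ratios). Over miR-320-3p, the ratio of miR-1983 was 5.74, 4.13 and 4.59 at E14.5 and 2.32, 0.0805 and 0.0447 at P0. These values were also separate between the stages (exact p = 0.1, adjusted 0.233). In P0 replicates 2 and 3 the ratios of miR-1983 and miR-1839-5p to miR-320-3p lay below their E14.5 values. In P0 replicate 1 that of miR-1839-5p did not. With all libraries neither difference passed in the limma fit with stage as the only term, given below.

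Within the capped pair the exact test could not have passed, since 0.1 is its smallest p. The limma fit of this difference, given below, did not pass with all libraries (limma unadjusted p = 0.0563). The ratio of miR-484 to miR-320-3p was 0.339, 0.278 and 0.303 at E14.5 and 0.237, 0.0755 and 0.0428 at P0, with no overlap (exact p = 0.1, adjusted 0.233). miR-1839-5p over miR-320-3p was 1.72, 1.25 and 1.38 at E14.5 and 2.72, 0.276 and 0.378 at P0, so P0 replicate 1 lay above the E14.5 libraries and the other P0 libraries below them (exact p = 0.4). The mirtron ratios overlapped between the stages: miR-877-5p over miR-320-3p gave an exact p of 0.2, and miR-702-3p over miR-877-5p an exact p of 0.3.

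The difference between each member's change and that of miR-320-3p was also fitted over all miRNAs with limma. No miRNA passed (0 of 669 called, 0%; 131 had an unadjusted p under 0.05). The differences on the log2 scale were −4.48 for miR-1983 (limma adjusted p = 0.128), −1.66 for miR-484 (0.262), −1.12 for miR-1839-5p (0.475), −0.89 for miR-877-5p (0.465), −0.54 for miR-702-3p (0.628) and −0.35 for miR-877-3p (0.743). Without P0 replicate 1, 338 of 688 miRNAs were called (49.1%), with 41.6% lower. Among them were miR-1983 at −6.20 (limma adjusted p = 4.14e-06), miR-484 at −2.32 (0.00237) and miR-1839-5p at −2.14 (0.00155), but none of the mirtron products. For these the 95% intervals with all libraries ran from −2.40 to 0.62 (miR-877-5p), −2.04 to 0.95 (miR-702-3p) and −1.79 to 1.09 (miR-877-3p), so differences of up to several-fold from miR-320-3p were not detectable.

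**Figure D3:**
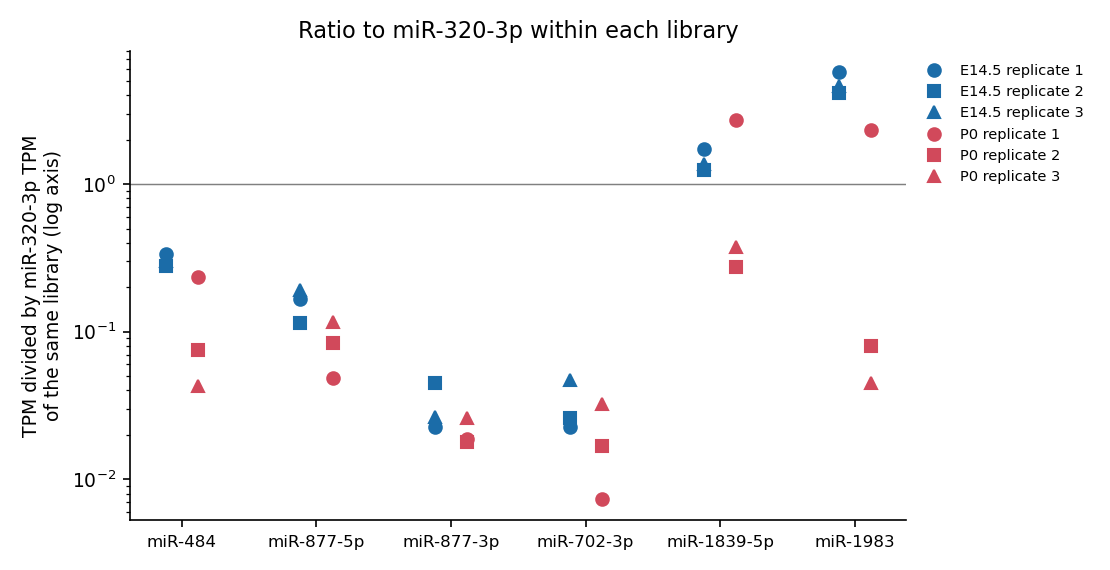
TPM of each member divided by that of miR-320-3p in the same library (log axis); the grey line marks equal levels. The 3 E14.5 values of miR-1983 lie between 4.13 and 5.74, and the P0 values at 2.32, 0.0805 and 0.0447.

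P0 replicate 1 was low in some members and high in others. Its log2(TPM + 1) minus the mean of P0 replicates 2 and 3 had a median of 0.61 over the tested miRNAs. The difference was 4.03 for miR-1983, 1.92 for miR-1839-5p and 0.86 for miR-484, and −1.94 for miR-877-5p, −1.81 for miR-702-3p, −1.13 for miR-320-3p and −0.99 for miR-877-3p. P0 replicate 1 was the lowest P0 library for 4 of 7 members (27.8% of tested miRNAs) and the highest for the other 3 (58.5% of tested miRNAs). Across 582 tested miRNAs with a sequence, which share these libraries, this difference had a Pearson correlation of −0.43 with GC content, and the log2 fold change in TPM one of 0.39. The part of GC content in the members' values was not tested beyond the correction given above.

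**Figure D4:**
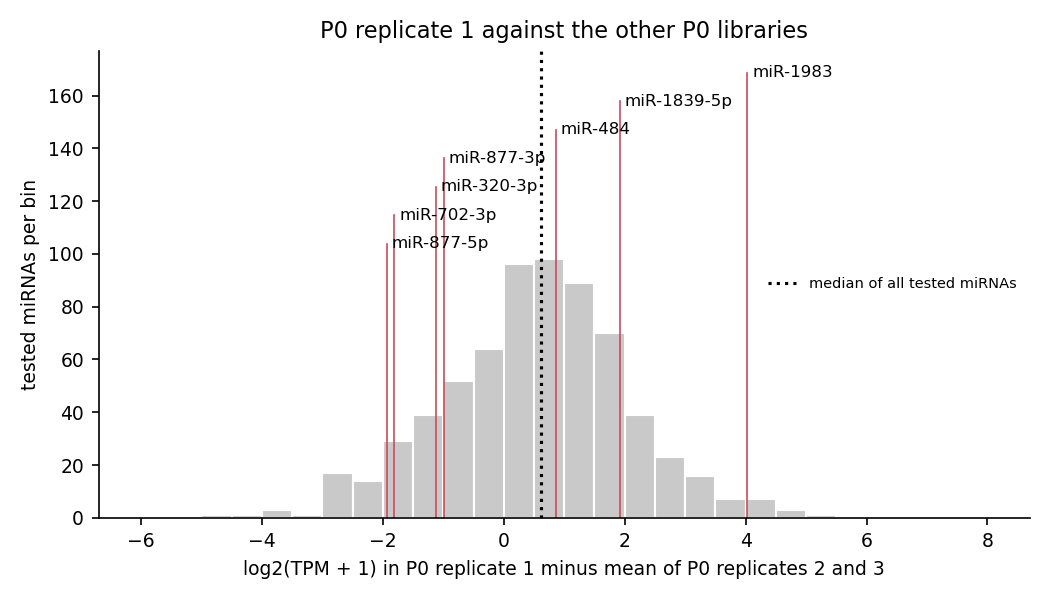
Difference in log2(TPM + 1) between P0 replicate 1 and the mean of P0 replicates 2 and 3, as a histogram over the 670 tested miRNAs with the 7 members marked; the dotted line is the median, 0.61. miR-320-3p and the mirtron products lie between −1.94 and −0.99, and miR-1983 at 4.03.

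Both arms of the miR-877 hairpin were measured, and the 5p arm prevailed in every library. It had 87.0% of the miR-877 reads in E14.5 replicate 1 (77 reads, 95% Wilson interval 77.7 to 92.8), 69.6% in replicate 2 (998 reads, 66.7 to 72.4) and 86.7% in replicate 3 (286 reads, 82.3 to 90.2). At P0 it had 70.1% (214 reads, 63.6 to 75.8), 80.9% (491 reads, 77.1 to 84.1) and 80.1% (547 reads, 76.5 to 83.2). E14.5 replicate 2 and P0 replicate 1 were the low libraries of their stages, so the stages overlapped. The difference in the log2 ratio of the arms, P0 minus E14.5, was −0.54 (exact two-sided permutation p = 0.4). It was −0.99 without E14.5 replicate 2 and −0.22 without P0 replicate 1. Intervals cover counting error only.

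**Figure D5:**
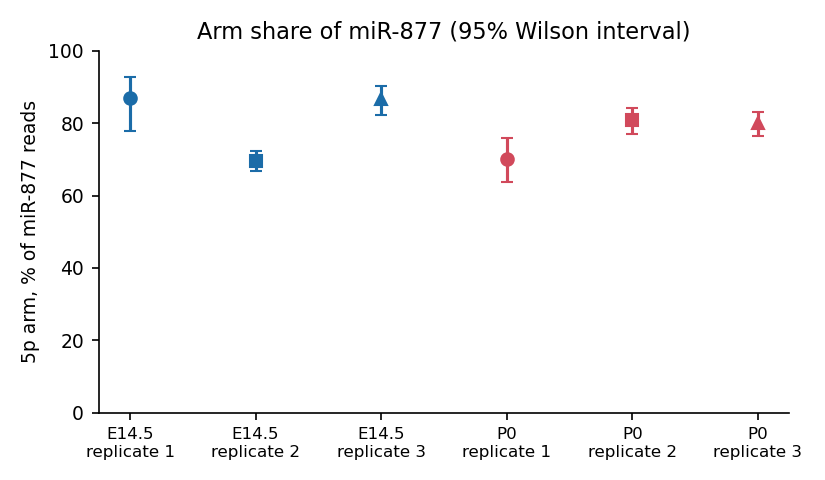
Share of miR-877 reads on the 5p arm in each library, with 95% Wilson intervals on an axis from 0 to 100%. The shares run from 69.6% to 87.0%, and the 2 stages overlap.

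A further list held other arms made outside the Drosha route, arms from the members' own hairpins and, as a contrast, miR-451a, which needs Drosha but not Dicer. Of 13 listed, 12 were in the table and 9 passed the filter. In TPM 3 of the 9 were called lower, which is near the 32.8% of all tested miRNAs, none was called higher, and 6 did not pass. After scaling none of the 9 was called by limma (3 had an unadjusted p under 0.05), where 10.9% of the 670 tested miRNAs were called and 228 had an unadjusted p under 0.05. The median log2 fold change of the 9 was 0.26 after scaling and −0.76 in TPM, against −0.17 and −1.20 for all tested miRNAs. The arms called lower were miR-1839-3p, miR-664-3p and the contrast miR-451a, so these counts and medians include an arm that needs Drosha. miR-1839-3p, the opposite arm of the snoRNA-like hairpin, had 5.78, 4.98 and 12.9 TPM at E14.5 and 0.741, 0.344 and 1.11 TPM at P0 (log2 fold change −2.28, limma adjusted p = 0.0104; −1.44 and 0.0945 after scaling). miR-664-3p, from another snoRNA-like hairpin, had 12.1, 8.23 and 16.4 TPM at E14.5 and 3.05, 0 and 4.98 TPM at P0, where 3 reads over 21 bases would be 0.135 TPM in replicate 2 (−2.15, limma adjusted p = 0.0349; −1.28 and 0.273 after scaling). The opposite arm, miR-664-5p, had 38.6, 22.4 and 44.2 TPM at E14.5 and 35.2, 19.7 and 22.1 TPM at P0. Its stages overlapped in TPM (−0.42, limma adjusted p = 0.559), and its scaled change was positive but did not pass (0.83, limma adjusted p = 0.262), although the scaled stages did not overlap. The snoRNA-like miR-1291 had 44.8, 142 and 147 TPM at E14.5 and 41.4, 172 and 106 TPM at P0, with overlap and no call (−0.10, limma adjusted p = 0.922; 1.18 and 0.286 after scaling).

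miR-451a, the contrast, is typical of red blood cells and had 276, 144 and 236 TPM at E14.5 and 46.0, 24.8 and 27.4 TPM at P0 (−2.70, limma adjusted p = 0.00605; −1.43 and 0.0692 after scaling). The mirtron product miR-1981-5p was higher in P0 replicates 2 and 3 than in its other libraries, with 24.2, 42.7 and 43.3 TPM at E14.5 and 27.0, 86.5 and 87.1 TPM at P0. Its change did not pass in TPM (0.71, limma adjusted p = 0.371) or after scaling (1.98, limma adjusted p = 0.0799), while the authors' deposited table gave 2.09 with an adjusted p of 0.0304. The mirtron product miR-1224-5p had 0, 5 and 0 reads in the E14.5 libraries and 0, 46 and 71 reads in the P0 libraries, with a mean of 0.978 TPM, just under the filter. The listed mirtron arms differed in where P0 replicate 1 lay. It was the lowest P0 library for miR-1981-5p, miR-1224-5p and miR-702-5p (0.151, 0.473 and 0.440 TPM) and tied for the lowest for miR-1982-5p (0, 0.199 and 0 TPM). It was not the lowest for miR-1981-3p (9.21, 8.03 and 2.44 TPM) or miR-1982-3p (0.878, 0.816 and 2.53 TPM).

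The miRNAs with the most similar profile were found by the smallest Euclidean distance between centred log2(TPM + 1) profiles over the 6 libraries, among 427 other miRNAs averaging 10 TPM or more. For miR-320-3p they were miR-423-3p (0.46), miR-541-5p (0.49) and miR-92b-3p (0.58), against a median distance of 2.59. For miR-877-5p they were miR-132-3p (0.70), miR-1306-3p (0.71) and miR-125b-1-3p (0.75), against a median of 3.04. For miR-1839-5p they were let-7e-3p (0.44), miR-466d-3p (0.46) and miR-299a-5p (0.50), against a median of 2.11. For miR-1983 they were miR-374b-5p (1.29), miR-19a-3p (1.62) and miR-20b-5p (1.63), against a median of 5.40. These distances grow with the size of a member's change, so they are not compared between members. miR-374b-5p, the nearest, had 436, 473 and 529 TPM at E14.5 and 174, 7.61 and 1.12 TPM at P0.

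Marker miRNAs of other cell types were measured in the same libraries, and their calls are read against the 32.8% of tested miRNAs called lower in TPM and the 5.22% called lower after scaling. The 2 endothelial markers summed to 26608 to 44921 TPM at E14.5 and 5634 to 8158 TPM at P0, and both were called lower in TPM. The 5 epithelial markers (4122 to 23183 and 500.2 to 1542 TPM) were called lower in 5 of 5 cases, the 4 stromal markers (21326 to 33937 and 7443 to 14270 TPM) in 2 of 4, the 4 erythroid markers (242 to 417 and 127 to 189 TPM) in 1 of 4 and the 4 leukocyte markers (632 to 1202 and 454 to 629 TPM) in 0 of 4. After scaling, 1 endothelial and 3 epithelial markers were called lower and 1 leukocyte marker higher. No marker was at 0 in any library. The summed level was highest in P0 replicate 1 among P0 libraries for each list except the erythroid one. Their part in the changes of miR-1983 and miR-484 was not tested.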

How the data were processed

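Small RNA libraries (QIAseq miRNA kit, per the labels' protocols) of 6 litter pools were analysed. The authors deposited 1 table with a TPM value per mature miRNA and library, and, per the file headers, a mean normalised signal, their own log2 fold change and its error, a score for the test and p-values. Build mm10, featureCounts and DESeq2 1.26.0 are named in the submitters' processing notes. The aligner, trimming and use of molecular tags are not given in the sources used here, so PCR duplicates may be counted. The deposited log2 values are read as P0 over E14.5, since miRNAs lower at P0 such as miR-1983 have negative ones.

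The deposited TPM sum to 1000000 in each library. Multiplied by end minus start they were whole multiples of 1 step per library in 100% of values (tolerance 1e-06), which gave the recovered reads. For 52 miRNAs with several rows the row with the most reads was used; each member had 1 row.

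The test was limma 3.58.1 (R 4.3.3, mean-variance trend) on log2(TPM + 1) of the 670 miRNAs averaging 1 TPM or more, with stage as the only term and Benjamini-Hochberg adjustment, called below 0.05. Fold changes are on this scale, which understates those of low miRNAs. The fits were tested on simulated reads in which no library stood apart and no change fell on the most abundant miRNAs. Those reads lack the median shift in TPM and the deviant P0 replicate 1 of these data, so robustness to these was not tested. Replicates were separate litters per the labels. The members, lists and tests were chosen with earlier results of these data known. Named miRNAs were the 7 members, the listed arms of non-canonical or shared hairpins, and the 3 nearest profiles of 4 members. let-7a-5p, miR-412-3p and the marker lists are named for comparison.

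Alternatives were scaling by the median of ratios or the upper quartile, voom on recovered reads, no filter or one of 10 TPM, a pseudocount of 0.1, summed rows, no most abundant miRNA, a replicate block, a GC correction (86.9% of tested miRNAs had a sequence) and leaving out each library.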

Additional observations from a re-analysis of the deposited data

How the results depend on the processing

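Of 229 miRNAs called in TPM, the count became 73 (38 higher, 35 lower) with median-of-ratios scaling, 63 with upper-quartile scaling, 28 with limma-voom on recovered reads, 77 with the replicate block and median-of-ratios scaling, 331 (156 higher, 175 lower) without P0 replicate 1 under that scaling, and 72 (without E14.5 replicate 3) to 420 (without P0 replicate 1) when 1 library was left out. It was also moved to 111 without E14.5 replicate 1 and 115 without P0 replicate 2, and to 134 without P0 replicate 3. miR-320-3p turned positive with median-of-ratios scaling (0.76, also with the replicate block), upper-quartile scaling (0.89), limma-voom (0.72) and without P0 replicate 1 under median-of-ratios scaling (1.37). Under the same settings miR-484 lost its call, at −0.94 (also with the block), −0.82, −1.002 and −1.01. miR-877-3p turned to 0.21 (also with the block), 0.31 and, without P0 replicate 1 under scaling, 0.75, and miR-702-3p to 0.016 (also with the block), 0.12 and 0.85. miR-877-5p turned to 0.71 only in the last of these. The GC correction lowered the values of members rich in G and C. It brought miR-877-5p (−2.19, adjusted p 0.0121, with the replicate block 0.00849) and miR-702-3p (−2.01, 0.0208, with the block 0.0140) past the limma threshold, and miR-320-3p has no value there. The filter of 10 TPM leaves out miR-877-3p and miR-702-3p.

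Leaving out 1 library moved miR-484 between −2.47 and −1.79, miR-1839-5p between −2.29 and −1.29 and miR-1983 between −6.35 and −4.07, and relative to miR-320-3p they moved between −2.32 and −1.15, −2.14 and −0.50, and −6.20 and −3.43. miR-1983 passed the limma threshold under all settings run in TPM or scaled. Relative to miR-320-3p it passed with the replicate block (−4.48, limma adjusted p = 3.84e-06) and without P0 replicate 1. Same-numbered libraries share only a number: their deviations from the stage means correlated at 0.19, 0.18 and 0.04. The titles carry other numbers (2, 5 and 6 at E14.5, and 2, 4 and 6 at P0), so replicate 2 of each stage does not share a title number, and the block values rest on a pairing that the labels do not establish. The block gave 247 calls in TPM and changed no other call of a member. The causes were not tested. Low depth in E14.5 replicate 1 limits miR-877-3p and miR-702-3p, with 10 reads each.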
